A study of Mus musculus with 4 samples.

Results

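Germ cells of the E11.5 mouse gonad were described here: primordial germ cells that had recently reached the genital ridge. They were chosen by a marker rule. An E11.5 cell was counted as a germ cell when it had a value above 0 for at least 3 of the 6 genes Dazl, Ddx4, Dnd1, Mael, Dppa5a and Mov10l1, and a value of 0 for Alas2, the erythroid enzyme of haem synthesis. By this rule 242 of the 4916 cells of the E11.5 library were germ cells (4.92%, exact binomial 95% interval 4.33 to 5.56). The comparison cells were the 4530 E11.5 cells with at most 1 of the 6 genes above 0. The study profiled gonads of C57BL/6 XX embryos, collected daily from E11.5 to E14.5, by 10x Chromium single-cell 3′ RNA sequencing (version 2 chemistry), with 1 library per stage and 19387 cells in all. All 4 libraries were labelled with the same strain and as XX, no treatment or sort was named, and the labels used here do not give the number of embryos behind a library. Because a stage is a single library, no difference below has a replicate check. Stage and library cannot be told apart, intervals cover counting error only, and no p-value was computed.

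Mouse primordial germ cells arise outside the embryo proper, migrate through the hindgut and its mesentery, and settle in the genital ridges around this stage. They keep a pluripotency-like programme during migration while DNA methylation is stripped from the genome, imprints included, and in XX embryos the inactive X chromosome is reactivated. In the gonad they gain Dazl and Ddx4, stop relying on pluripotency factors, and in the XX gonad enter meiosis under retinoic acid and BMP signals, with Stra8 as a gatekeeper.

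Proximal promoters of rule genes are printed because genes of the germline programme are a textbook case of CpG-dense promoters that are silenced by methylation and held by E2F6 and by MGA with MAX, whose motifs are TTCCCGC (searched with its reverse complement GCGGGAA) and CACGTG (its own reverse complement). Each sequence is RefSeq's, build GRCm38.p6, from 250 bases before to 50 bases after the annotated start, 5′ to 3′ on the gene's strand, with motif matches in capitals. Ddx4 (chr13:112652261-112652560, minus strand) holds CACGTG 29 bases and GCGGGAA 136 bases upstream of the start. Mael (chr1:166238695-166238994, minus strand) holds CACGTG 223 bases upstream, and Mov10l1 (chr15:88982744-88983043, plus strand) holds it 246 bases upstream. Dazl (chr17:50293571-50293870, minus strand) holds neither motif in this window.
Ddx4: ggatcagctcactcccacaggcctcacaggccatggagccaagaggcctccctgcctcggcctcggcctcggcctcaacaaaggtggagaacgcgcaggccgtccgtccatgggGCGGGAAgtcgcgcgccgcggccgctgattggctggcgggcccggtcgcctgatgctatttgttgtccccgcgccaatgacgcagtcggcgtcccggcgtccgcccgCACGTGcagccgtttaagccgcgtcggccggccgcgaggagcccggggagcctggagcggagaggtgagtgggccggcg
Mael: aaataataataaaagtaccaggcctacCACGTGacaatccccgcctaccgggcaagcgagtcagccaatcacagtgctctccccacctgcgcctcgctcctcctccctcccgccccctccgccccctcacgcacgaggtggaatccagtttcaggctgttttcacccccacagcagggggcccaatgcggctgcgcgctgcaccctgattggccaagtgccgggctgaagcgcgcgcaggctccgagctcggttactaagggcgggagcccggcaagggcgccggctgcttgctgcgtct
Mov10l1: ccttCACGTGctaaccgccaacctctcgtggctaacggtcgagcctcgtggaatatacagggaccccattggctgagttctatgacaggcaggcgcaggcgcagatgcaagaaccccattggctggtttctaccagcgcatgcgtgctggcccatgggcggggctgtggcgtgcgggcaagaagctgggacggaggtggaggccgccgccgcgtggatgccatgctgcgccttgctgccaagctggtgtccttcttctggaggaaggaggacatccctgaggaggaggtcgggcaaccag
Dazl: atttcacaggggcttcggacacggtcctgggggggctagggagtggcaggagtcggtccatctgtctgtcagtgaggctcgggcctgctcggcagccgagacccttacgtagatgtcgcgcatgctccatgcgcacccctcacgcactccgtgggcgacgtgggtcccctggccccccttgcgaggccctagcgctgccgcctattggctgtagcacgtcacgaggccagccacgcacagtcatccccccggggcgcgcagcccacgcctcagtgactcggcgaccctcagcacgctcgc

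The 4 promoters hold 38 (Ddx4), 24 (Mael), 20 (Mov10l1) and 28 (Dazl) CpG dinucleotides, against a median of 7 over all 27025 promoters of this length and of 22 over the 4942 promoters of genes that passed the count minimums below. CACGTG occurs in 7.24% of all promoters and in 11.6% of those of genes past the minimums. TTCCCGC or GCGGGAA occurs in 4.66% and 9.39% of them. A match is a description of letters, not a bound site. Dnd1 and Dppa5a are named only.

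The rule genes were unequal in how many germ cells they marked. Values are given as CPM, the UMIs of a gene per 1000000 UMIs summed over the cells of the class, and as the share of cells with at least 1 UMI. Dppa5a, a small KH-domain protein of pluripotent cells, was detected in all 242 germ cells, with 2 to 305 UMIs per cell (median 86) and 3018 CPM (95% interval 2980 to 3057). Dnd1, an RNA-binding protein that germ cells need to survive, was found in 96.3% of them at 159 CPM. Ddx4, the vasa RNA helicase, was found in 74.0% at 48.6 CPM, and Dazl, the RNA-binding licensing factor for gametogenesis, in 66.9% at 64.1 CPM. The piRNA-pathway genes Mael (42.1%, 20.6 CPM) and Mov10l1 (39.7%, 16.6 CPM) were found in the fewest. In practice the cells were chosen by Dppa5a and Dnd1 together with at least 1 sparse gene: the commonest combination, Dazl with Ddx4, Dnd1, Mael and Dppa5a, covered 35 cells, and all 6 genes were seen together in 20.

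Among comparison cells Dppa5a had a UMI in 19.9% of cells at 16.4 CPM and Dnd1 in 4.55% at 3.23 CPM, while the other 4 rule genes were each in at most 0.552% of cells. A comparison cell had up to 65 Dppa5a UMIs. At 5000 UMIs drawn per cell, comparison cells reached 22 UMIs of pluripotency genes and 14 of Rhox genes, where germ cell medians were 16 and 10. The rule depends on depth, with a share of 1.61% at 5000 UMIs per cell. Whether it missed germ cells was not tested. Depth differed between the classes: germ cells had a median of 31094 UMIs (9746 to 67982) and 4659 genes, comparison cells a median of 13943 UMIs and 3577 genes. The germ cells therefore held 9.64% of the library's UMIs. A doublet caller marked 10 germ cells (4.13%) and 102 comparison cells (2.25%), and all were kept. Cell barcodes were shared between libraries by 354 cells of the series, of which 8 share a germ cell's barcode. Since the rule genes chose the cells, their values are a description.

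The edge of the rule lay between cells with exactly 2 and exactly 3 markers. The 77 cells with exactly 3 had Pou5f1 UMIs in 93.5% of cells, 854 CPM of Dppa3, 96.0 CPM of Xist and a median of 29757 UMIs. The 120 cells with exactly 2 and no Alas2 UMI had Pou5f1 in 25.8% of cells, 347 CPM of Dppa3, 1256 CPM of Xist and a median of 16790 UMIs. Above the edge the levels did not follow the number of markers. Pou5f1 was at 147, 131, 130 and 147 CPM in cells with 3, 4, 5 and 6 markers, and Dppa3 at 854, 772, 838 and 961 CPM. Xist was at 96.0, 141, 60.0 and 78.1 CPM and Wt1 at 24.5, 43.7, 15.6 and 22.1 CPM in these cells. A further 16 cells had at least 3 markers and an Alas2 UMI, and were left out.

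**Figure D1:**
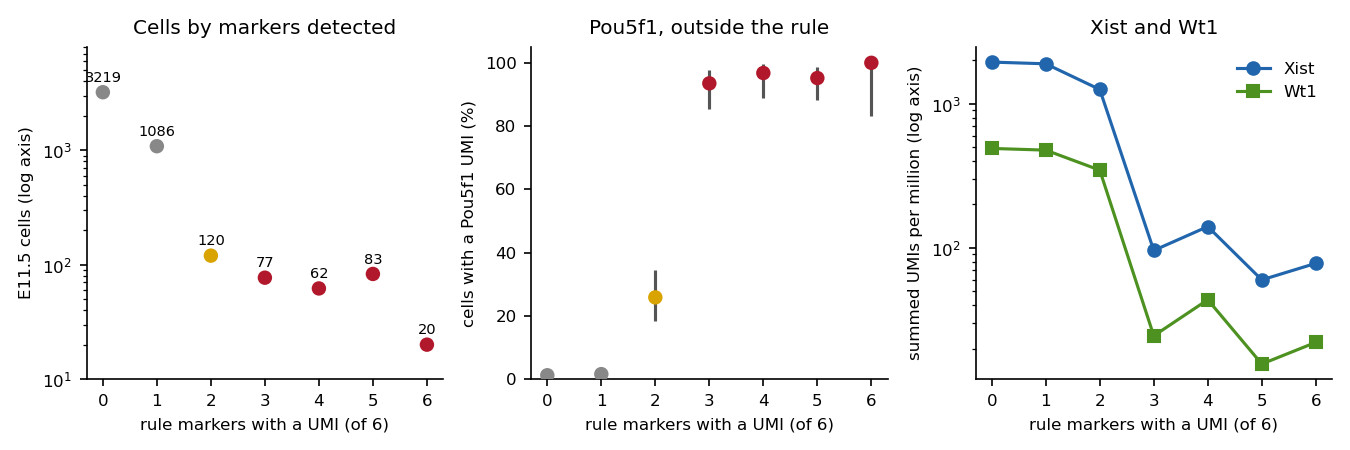
Number of E11.5 cells (left, log axis), share of cells with a Pou5f1 UMI in percent with exact binomial 95% intervals (middle) and CPM of Xist and Wt1 (right, log axis), against the number of rule markers detected, for cells without Alas2. The Pou5f1 share was 1.21% and 1.57% in cells with 0 and 1 marker, 25.8% with 2, and 93.5% or more with 3 to 6, where Xist and Wt1 are lowest.

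The label was checked against genes that the rule did not use. Pou5f1, the POU factor at the centre of pluripotency and of germ cell survival, was at 137 CPM (129 to 145) in germ cells and 0.864 CPM in comparison cells, with UMIs in 95.5% and 1.26% of cells. After thinning each cell to 5000 UMIs these shares were 49.6% and 0.442%. Markers of gonadal somatic cells were low. Wt1 was at 26.4 against 469 CPM, Gata4 at 4.64 against 112 and Nr5a1 at 3.61 against 55.0. Sox18 (endothelium), Ptprc (leukocytes), Ret and Cdh16 (mesonephric epithelium) and Foxd3 (neural crest) had 0 UMIs in the 242 cells, but they were also at or near 0 in comparison cells (0.576, 1.17, 0.202, 0.0432 and 0 CPM), so these zeros separate little. Some genes of the marker lists had a higher level in germ cells or a UMI in a larger share of them. A part of these is given with the marker sums below.

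Genes were next ranked by the ratio of germ to comparison CPM. A gene counted as higher or lower when it had at least 50 UMIs over both classes, at least 20 CPM in the class where it was higher, a ratio of at least 4 and Poisson intervals that did not overlap. The rule genes and Alas2 were left out. Of the 6095 genes that met the minimums, 246 (4.04%) were higher in germ cells and 958 (15.7%) were lower. The median log2 ratio of all these genes was -0.33, and with median-of-ratios scaling in place of CPM the counts were 313 and 786. The cells were chosen from this same contrast, so these counts and all ratios to comparison cells are descriptions. Genes below the minimums are given by their values only.

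Pluripotency and germ cell specification factors were mostly higher in germ cells. Of 22 genes of this list that met the minimums 20 were higher and 1 was lower, where 4.04% and 15.7% of all genes were. The list's median log2 ratio was 6.85 against -0.33 for all genes, and its summed level was 3205 CPM in germ cells and 185 CPM in comparison cells. Dppa3 (Stella), a maternal and germ cell factor that shields DNA from demethylation, was the most abundant at 836 CPM (815 to 856) against 3.69, and was found in 99.6% of germ cells and 5.14% of comparison cells. Utf1, a chromatin factor of embryonic stem cells, was at 748 CPM against 48.0, a 15.6-fold difference.

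Sox2, the partner of Pou5f1, was at 110 CPM against 0.605, and Nanog, the homeobox factor of naive pluripotency, at 44.5 against 0.547. The specification factor Tfap2c was at 70.4 CPM against 0.259, a ratio of 272. Zfp42 (Rex1) was at 132 CPM, Sall4 at 128, Dppa4 at 161, Dppa2 at 38.8, Lin28a, which blocks let-7 maturation, at 55.3 and the germ cell survival factor Nanos3 at 35.6, all past the size rule. The other founding regulators lay under 20 CPM, with Prdm1 (BLIMP1) at 17.7 CPM and Prdm14 at 12.1 CPM, against 0.461 and 0.0432 CPM. Prdm14 had 94 UMIs in germ cells and 3 in comparison cells, a ratio of 281 with a log2 interval of 6.54 to 10.44. The exception in the list was Klf4, at 5.03 CPM in germ cells and 47.4 in comparison cells. Klf2, its relative in embryonic stem cells, was at 115 and 49.2 CPM and did not reach the ratio of 4.

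Receptors and surface proteins known from migrating germ cells were mixed. Of 16 surface and migration genes past the minimums 5 were higher and 2 lower, where 4.04% and 15.7% of all genes were. The list's median log2 ratio was -0.14 against -0.33 for all genes. Kit, the receptor for the migration and survival signal, was at 55.1 CPM against 2.52, and its ligand gene Kitl was at 5.93 against 136 CPM. Ifitm3 (Fragilis), a classical germ cell surface marker, was at 1189 CPM (1164 to 1213) against 107. Its neighbour Ifitm1 was also abundant in germ cells, at 1099 CPM, but stood at 1849 CPM in comparison cells. Alkaline phosphatase Alpl, the histochemical marker of these cells, was at 91.9 CPM against 4.74 and the adhesion molecule Epcam at 111 against 9.50. The laminin receptor subunit Itga6 (6.71 against 98.6 CPM) and the connexin Gja1 (2.97 against 85.7 CPM) were lower. Fut4 had 0 UMIs, where 3 counts of the germ cells' total would be 0.387 CPM and the upper Poisson limit is 0.476 CPM.

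**Figure D2:**
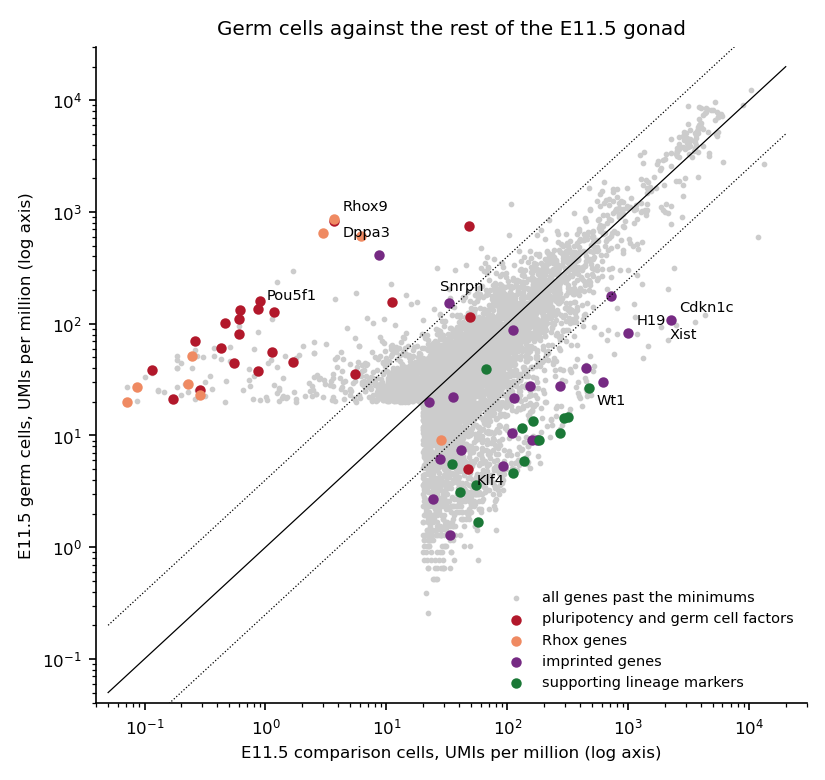
Level of each gene in E11.5 comparison cells (x) and germ cells (y), in CPM on log axes, for genes that met the minimums, with 4 gene lists in colour, equality as a solid line and ratios of 4 as dotted lines. Dppa3, Rhox9 and Pou5f1 lie above the upper dotted line, and Cdkn1c, Xist and Wt1 below the lower one.

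Genes of the germline RNA and piRNA machinery were already present in part. Of 16 listed genes past the minimums 8 were higher and 1 was lower, where 4.04% and 15.7% of all genes were. The list's median log2 ratio was 1.68. Fkbp6, a co-chaperone of piRNA loading, was at 166 CPM against 3.76. Tex19.1, a guard against retrotransposons, was at 84.4 against 0.864, and the neuronal-type RNA-binding protein Elavl2 at 68.0 against 2.52. The tudor-domain genes Stk31 (40.4 CPM), Tdrkh (30.6 CPM) and Tdrd12 (21.2 CPM), the gametocyte factor relative Gtsf1l (47.3 CPM) and the testis alpha-tubulin Tuba3a (27.3 CPM), which has a near-identical copy in Tuba3b and is uncertain for that reason, completed the higher genes. Msi2, an RNA-binding protein of stem cells, was lower at 6.06 against 35.8 CPM. Several core piRNA genes were under the minimum of 20 CPM, among them Piwil2 (12.9 CPM), Asz1 (16.6 CPM) and Rnf17 (19.7 CPM). Nanos2, the male germline factor, had 0 UMIs.

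Meiotic genes were low with some exceptions. Only 5 of the listed meiosis genes met the minimums. Syce2, a central element protein of the synaptonemal complex, was at 320 CPM against 69.3, and was the most abundant of them. The meiotic cohesin genes Smc1b (59.9 against 0.806 CPM) and Stag3 (20.6 against 0.907 CPM) and the recombination initiation factor Rec114 (27.1 against 4.32 CPM) were higher. The cohesin Rec8 was lower at 4.13 against 26.9 CPM. Stra8 had 0 UMIs in both classes. The axial element gene Sycp3 was at 16.9 CPM in germ cells against 0.0864, and the transverse filament gene Sycp1 at 5.03 CPM.

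Homeobox genes of the X-linked Rhox cluster, expressed in reproductive tissues, were the other strongly separated group. Of 9 that met the minimums 8 were higher and 0 lower, where 4.04% and 15.7% of all genes were. The list's median log2 ratio was 7.72 against -0.33 for all genes, and the list summed to 2340 CPM in germ cells and 42.1 in comparison cells. Rhox9 was at 858 CPM (837 to 878) against 3.69, Rhox6 at 647 against 2.97 and Rhox5 (Pem) at 608 against 6.12. Rhox2a (51.6 CPM), Rhox2h (29.2 CPM), Rhox4c (20.1 CPM) and Rhox7b (23.1 CPM) belong to families of near-identical copies, so their individual values are uncertain. Rhox8, which somatic cells of the gonad express, was at 9.16 CPM in germ cells and 28.2 in comparison cells. Rhox10 and Rhox11 had 0 UMIs.

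The enzymes and readers of DNA methylation did not move as a block. Of 31 listed chromatin genes past the minimums 3 were higher and 4 lower, where 4.04% and 15.7% of all genes were. The list's median log2 ratio was 0.23 against -0.33 for all genes. Tet1, the dioxygenase that oxidises 5-methylcytosine, was at 51.9 CPM (46.9 to 57.2) against 10.9. Tet3 was at 1.16 against 23.2 CPM, and was lower. Uhrf1, which brings the maintenance methyltransferase to replicating DNA, was at 7.10 against 52.3 CPM, while the gene of that methyltransferase, Dnmt1, was at 98.4 against 41.5 CPM and was not past the ratio of 4. The de novo enzyme Dnmt3a (16.3 against 51.2 CPM) did not reach that ratio either. Dnmt3b (1.68 against 14.8 CPM) was under the minimum of 20 CPM in both classes and so had no call, and Dnmt3l had 0 UMIs. The helicase Hells (381 against 77.4 CPM) and the nucleosome-binding gene Hmgn5 (400 against 67.9 CPM) were higher, and Hmga2, an architectural protein of embryonic mesenchyme, was lower at 22.6 against 459 CPM. The silencers named with the promoters above were present in both classes. E2f6 was at 12.9 and 27.4 CPM, Mga at 43.7 and 37.2 and Max at 69.3 and 44.3.

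Imprinted genes were mostly lower, where 15.7% of all genes were lower and 4.04% higher. Of 21 that met the minimums 16 were lower and 2 higher, with a median log2 ratio of -3.15, and the list summed to 1309 CPM in germ cells and 6538 CPM in comparison cells. Cdkn1c (p57), a maternally expressed cell cycle inhibitor, was at 108 against 2253 CPM, and the H19 non-coding RNA at 82.4 against 999 CPM. Paternally expressed Mest (30.2 against 620 CPM), Dlk1 (9.16 against 174 CPM) and Igf2 (10.6 against 109 CPM) and maternally expressed Meg3 (39.9 against 443 CPM) were also lower, so both parental classes of expression were among them. Peg3 was at 176 against 724 CPM, close to the limit: it missed the ratio of 4 with median-of-ratios scaling (log2 ratio -1.71). Snrpn (152 against 32.6 CPM) and Phlda2, a placental growth regulator (414 against 8.61 CPM), were higher.

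Somatic marker UMIs were found in many germ cells, mostly in small numbers. After thinning to 5000 UMIs, 139 germ cells (57.4%) had no UMI of the supporting-lineage marker list, against 166 comparison cells (3.66%), and 8 germ cells had more than 4, of which 4 were called doublets. Over the other 234 cells Cdkn1c was at 85.5 CPM in place of 108, H19 at 70.1 in place of 82.4 and Xist at 63.8 in place of 94.0. The limit of 4 UMIs was chosen after the values were seen.

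**Figure D3:**
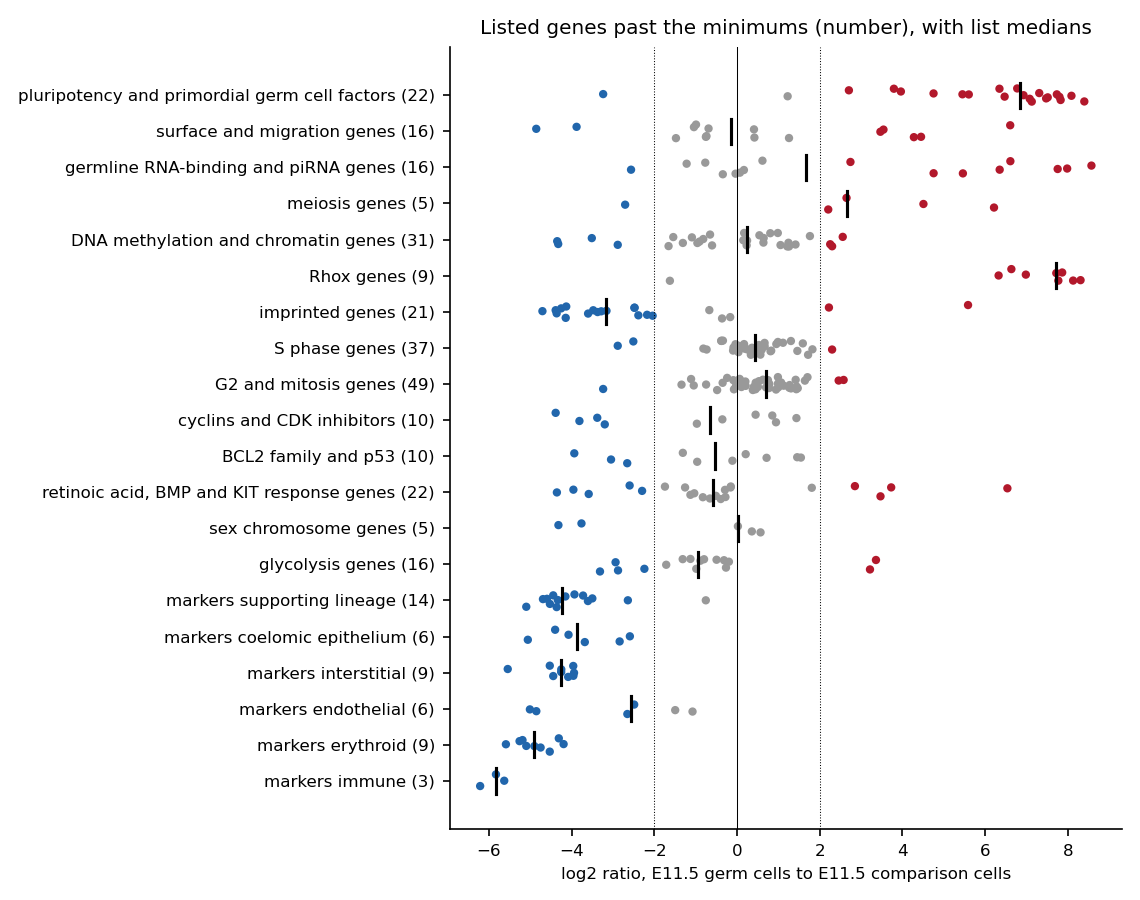
Log2 ratio of germ to comparison CPM at E11.5 for each gene that met the minimums, by gene list, for lists with at least 3 such genes, with each list's median as a black bar, dotted lines at ratios of 4, and higher genes in red and lower genes in blue. Pluripotency and Rhox genes lie to the right (medians 6.85 and 7.72) and imprinted and somatic marker genes to the left.

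Xist, the RNA that coats the inactive X chromosome, was at 94.0 CPM (87.3 to 101) in germ cells and 1873 CPM in comparison cells, a log2 ratio of -4.32 (-4.42 to -4.21). At full depth 61 germ cells (25.2%) and 19 comparison cells (0.419%) had no Xist UMI. At 5000 UMIs per cell these were 192 (79.3%) and 65 (1.43%), and the highest germ cell had 26. That cell met the rule with 3 markers but stood apart from the others: of its 5000 UMIs 22 were of the supporting-lineage list, 30 of imprinted genes, 1 of pluripotency genes and 0 of Rhox genes, and it was not called a doublet. It was one of the 8 germ cells with over 4 supporting UMIs, without which Xist was at 63.8 CPM, and the part of other cells' RNA in that level was not tested. Tsix, the antisense gene that overlaps Xist, was at 3.23 against 43.7 CPM. X-linked genes gave 3.34% of germ cell UMIs and 3.44% of comparison cell UMIs. The median log2 ratio of 204 X-linked genes was -0.51 and that of 5708 autosomal genes -0.33.

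Markers of other gonadal cells were summed in the same way, where 15.7% of all genes were lower and 4.04% higher. Of the supporting-lineage list 13 of 14 genes past the minimums were lower (164 against 2329 CPM summed), of the coelomic epithelium list 6 of 6 (44.8 against 418 CPM), of the interstitial list 9 of 9 (33.9 against 614 CPM), and of the endothelial list 4 of 6 (55.2 against 238 CPM). Immune markers summed to 11.7 against 237 CPM. Haemoglobin genes and other erythroid markers summed to 1023 against 24970 CPM, and the comparison cells include erythroid cells with up to 3804 such UMIs of 5000. The median germ cell had 5 erythroid UMIs after thinning and the median comparison cell 6. Hbb-y, the embryonic beta-like globin, had a UMI in all germ cells and in 99.98% of comparison cells, at 592 against 11719 CPM. The epithelial claudin Cldn7, listed as a mesonephric marker, was higher in germ cells at 34.3 against 0.806 CPM. Lhx1, a LIM homeobox gene of the same list, was at 11.2 against 0.0576 CPM, in 29.8% and 0.0883% of cells, and that list summed to 51.5 CPM in germ cells and 16.2 in comparison cells. The neural list summed to 22.7 and 15.3 CPM, with the neuronal genes Stmn2 at 12.6 against 6.58 CPM and Tubb3 at 6.19 against 2.09. Plvap of the endothelial list was at 11.4 against 32.0 CPM but had a UMI in 28.9% of germ cells and 6.60% of comparison cells, and Tyrobp of the immune list, at 5.68 against 17.5 CPM, in 15.7% and 1.94%. Lrrn4 of the coelomic epithelium list was at 13.3 against 10.8 CPM, in 33.5% and 11.6% of cells. Gng13 of the supporting-lineage list, at 39.3 against 66.3 CPM, was in 60.3% and 30.1%. Egfl7 of the endothelial list, at 27.6 against 58.1 CPM, was in 54.1% and 31.5%. Lhx1, Stmn2, Tubb3, Plvap, Tyrobp, Lrrn4, Gng13 and Egfl7 were not higher by the size rule. The shares of these single genes are at full depth, which was larger in germ cells, and are not given here at equal depth. At 5000 UMIs per cell, UMIs of the mesonephric list were in 23.6% of germ cells and 7.04% of comparison cells. For the neural list these shares were 9.50% and 4.97%, and for the immune list 7.85% and 4.79%. They were 21.9% and 22.2% for the endothelial list, 19.8% and 70.8% for coelomic epithelium and 42.6% and 96.3% for the supporting lineage.

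Few cell cycle genes passed the size rule, which 4.04% of all genes passed as higher and 15.7% as lower. Of 49 G2 and mitosis genes past the minimums, Gtse1 (35.1 against 5.88 CPM) and Nek2 (33.8 against 6.15 CPM) were higher and Psrc1 was lower, and of 37 S phase genes Hells was higher and Gins2 and Uhrf1 were lower. Their median log2 ratios were 0.70 and 0.44. Per cell, at 5000 UMIs, germ cells had 4 to 75 UMIs of G2 and mitosis genes (median 32) and 5 to 33 of S phase genes (median 18). Comparison cells had 0 to 139 (median 10) and 0 to 57 (median 9). With a limit of 15 G2 and mitosis UMIs, chosen after the values were seen, 1 germ cell (0.413%) and 2985 comparison cells (65.9%) fell below it, that germ cell being the one with the highest Xist, and 226 comparison cells lay above the highest germ cell. Of 10 cyclins and CDK inhibitors past the minimums 0 were higher, 4 were lower and 6 had no call. Their median log2 ratio was -0.66 against -0.33 for all genes. Among those at a lower level, Ccnd1 was at 3.74 against 38.9 CPM, Ccnd2 at 18.4 against 258 and the inhibitor Cdkn1b (p27) at 4.90 against 44.9.

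**Figure D4:**
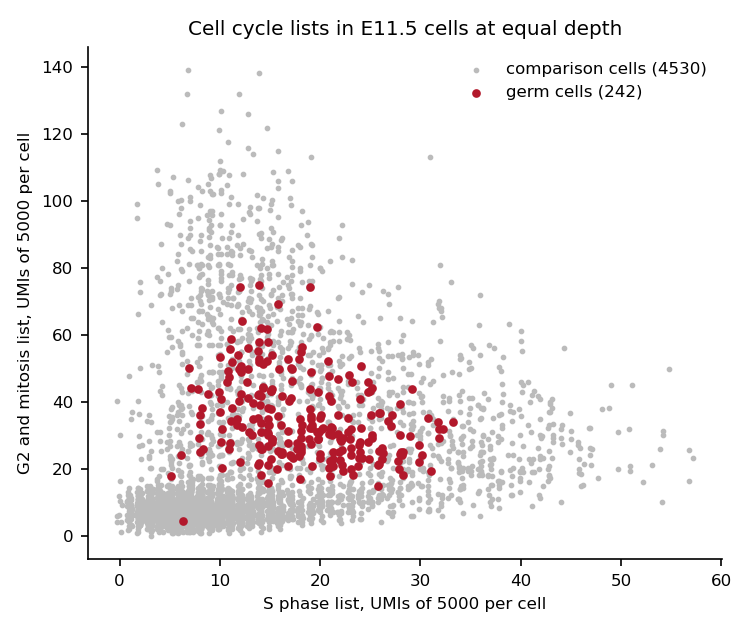
UMIs of S phase genes (x) and of G2 and mitosis genes (y) per E11.5 cell after thinning to 5000 UMIs, for germ cells and comparison cells. Germ cells spread from 4 to 75 on the y axis with a median of 32, while the comparison cells crowd near their median of 10 with a tail up to 139.

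Genes of survival, signal response and metabolism were tallied from the remaining lists. Over all genes 4.04% were higher and 15.7% lower, with a median log2 ratio of -0.33. The list medians were -0.54 for BCL2 and p53 and -0.58 for retinoic acid, BMP and KIT responses. In the BCL2 and p53 list 0 of 10 genes were higher and 3 were lower: the anti-death gene Bcl2 (3.74 against 57.1 CPM) and the pro-death genes Bak1 (5.93 against 37.3 CPM) and Bok (3.87 against 31.9 CPM). Bax, another pro-death gene, was at 399 CPM against 137 without reaching the ratio of 4. In the list of retinoic acid, BMP and KIT responses 4 of 22 genes were higher and 5 lower. The ETS factors Etv5 (102 against 7.69 CPM) and Etv4 (48.5 against 4.38 CPM), known to respond to receptor tyrosine kinases, the BMP target Msx2 (41.2 against 5.70 CPM) and Zglp1, a GATA-like factor of oogenic fate (25.4 against 0.274 CPM), were higher. The retinoid genes Crabp2 (6.58 against 39.7 CPM) and Dhrs3 (2.45 against 50.1 CPM) and the homeobox gene Msx1 (8.77 against 136 CPM) were lower.

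Glycolytic genes summed to 3807 CPM in germ cells and 9722 CPM in comparison cells. Of 16 past the minimums 2 were higher and 4 lower, where 4.04% and 15.7% of all genes were. The list's median log2 ratio was -0.93 against -0.33 for all genes. The lactate dehydrogenase genes Ldha (81.0 against 804 CPM) and Ldhb (313 against 2390 CPM) and Tpi1 (80.9 against 593 CPM) and Pfkl (19.4 against 91.3 CPM) were lower. The glucose transporter Slc2a3 (28.9 against 3.11 CPM) and the phosphofructokinase isoform Pfkp (31.3 against 3.05 CPM) were higher, so that the platelet and liver forms of phosphofructokinase went opposite ways, although Pfkl missed the ratio of 4 with median-of-ratios scaling (log2 ratio -1.90).

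Outside the lists, the 15 genes with the highest ratios were led by the LIM homeobox gene Isl2 (33.3 CPM, 330-fold), the epithelial splicing regulator Esrp1 (36.3 CPM, 315-fold) and Gdf3, a TGF-beta family ligand of pluripotent cells (51.0 CPM, 272-fold). Others among them were the adaptor subunit Ap3b2 (58.2 CPM), Trap1a (44.9 CPM), the germline retrotransposon silencer Morc1 (40.1 CPM), Gm9, Rbmxl2, BC048679 (238 CPM, 192-fold), the neurofilament gene Ina (51.6 CPM), Rpl39l (295 CPM, 175-fold), Gm6792, 1700019D03Rik and Foxr1 (39.9 CPM). Rpl39l is a near copy of Rpl39, Rbmxl2 of Rbmx, and Gm6792 is a gene model, so reads may be shared with relatives.

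Among the 10 genes with the lowest ratios were the protease genes Plat (0.774 against 36.4 CPM) and Pcsk5 (0.516 against 26.4 CPM), the positional homeobox gene Hoxa7 (0.645 against 29.8 CPM), the collagen gene Col12a1 (0.645 against 29.6 CPM) and Cyp11a1, the first enzyme of steroid synthesis (0.645 against 28.5 CPM). BC100530 had 2 germ cell UMIs (log2 ratio -6.42, interval -9.46 to -4.56) and Stfa1 had 3 (log2 ratio -5.77, interval -8.05 to -4.22). BC100530 UMIs were in 0.826% of germ cells and 0.905% of comparison cells and Stfa1 UMIs in 1.24% and 0.706%, so these ratios rest on under 1% of the comparison cells. Lpp, Pnliprp2 and Ptprd completed the group.

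Germ cells also varied among themselves in few genes. The Fano factor, the variance over the mean of a gene's UMIs, is 1 for Poisson counting. Over 1184 genes with a mean of at least 0.5 UMIs at 5000 UMIs per cell its median was 1.09, and 91 genes were above 1.5. In E12.5 germ cells the median was 1.07 over 1230 genes with 70 above 1.5, and in E11.5 comparison cells 1.13 over 1412 genes with 300 above 1.5. Of the 10 genes with the highest values in E11.5 germ cells 7 were mitochondrial, led by mt-Nd1 (26.6) and mt-Co3 (19.7). Those values rested on 2 cells with over 20% mitochondrial UMIs, and over the other 240 cells they were 4.29 and 7.12. The remaining 3 genes were Gm29666 (11.7, or 12.1 over 240 cells), the nuclear RNA Malat1 (6.85) and Kctd14 (5.59, or 5.23 over 240 cells). Kctd14 and Malat1 had higher means in comparison cells, at 12.96 and 69.9 UMIs per thinned cell against 0.537 and 13.2 in germ cells. Gm29666 had a lower mean there, at 0.0737 against 0.839. Without the 8 germ cells rich in supporting markers Kctd14 was at 68.8 CPM in place of 96.6. The part of other cells' RNA in the variation of Kctd14 and Malat1 was not tested. Gm29666 had UMIs in 26.0% of the 242 thinned germ cells.

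The same rule was applied at the later stages, where it found 668 germ cells at E12.5 (13.8% of cells), 783 at E13.5 (16.2%) and 2390 at E14.5 (49.9%). Levels of the rule genes themselves differed by stage, so the shares are set side by side only. From E11.5 to E14.5 Dazl was at 64.1, 275, 497 and 868 CPM, Ddx4 at 48.6, 90.7, 136 and 221, Mael at 20.6, 38.8, 96.7 and 232 and Mov10l1 at 16.6, 26.8, 35.8 and 107. Dppa5a went the other way, at 3018, 2257, 1213 and 755 CPM. The median germ cell of the later libraries had 27927, 24938 and 15630 UMIs. The 3 comparisons that follow share the E11.5 library.

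For stages a ratio of at least 2 was used with the same minimums. At E12.5, 103 of 4899 genes (2.10%) were higher than at E11.5 and 12 (0.245%) lower. At E13.5, 292 of 5217 (5.60%) were higher and 114 (2.19%) lower, or 218 and 156 with median-of-ratios scaling. At E14.5, 1265 of 5748 (22.0%) were higher and 456 (7.93%) lower, or 887 and 760 with that scaling. The median log2 ratio of all genes was 0.06, 0.10 and 0.29 in turn. Y-linked UMIs were found in 534 germ cells (22.3%) of the E14.5 library and in 0 of the earlier ones, and without those cells the E14.5 counts were 1274 and 476.

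Of the 8 genes with the highest ratios at E12.5, 4 were histone genes. Hist1h1b, a replication-dependent linker histone, went from 29.8 to 152 CPM, and then stood at 41.1 and 73.8 CPM at the later stages, and Hist1h1e (29.8 to 117 CPM), Hist1h1a (9.55 to 30.9 CPM) and Hist1h2ae (20.5 to 65.3 CPM) also rose at E12.5. Comparison cells of the same libraries went from 14.3 to 101 CPM of Hist1h1b, 13.7 to 85.1 of Hist1h1e, 3.66 to 10.6 of Hist1h1a and 50.3 to 81.9 of Hist1h2ae. Histone genes are near copies of each other, so single values are uncertain. Of the cell cycle lists 2 of 35 S phase genes, Atad2 and Casp8ap2, and 5 of 49 G2 and mitosis genes, Mki67, Kif20b, Ect2, Hmmr and Cenpe, were higher. Hormad1, which marks unsynapsed chromosome axes, rose from 7.87 to 29.8 CPM, and the listed genes Tet1 (51.9 to 113 CPM), Stk31 (40.4 to 91.5 CPM), Smc1b (59.9 to 155 CPM) and Zglp1 (25.4 to 63.6 CPM) passed the ratio of 2. Of the pluripotency list 0 of 23 genes passed in either direction, where 2.10% and 0.245% of all genes did. Among the genes lower at E12.5 were Snhg12 (39.6 to 13.1 CPM), Arhgef40 (25.3 to 5.60 CPM), the stress gene Gadd45g (23.2 to 8.89 CPM) and the embryonic globins Hbb-bh1 (49.5 to 9.09 CPM) and Hba-x (104 to 29.2 CPM). Comparison cells went from 495 to 124 CPM of Gadd45g, 44.7 to 33.2 of Snhg12 and 9.50 to 13.6 of Arhgef40. Their Hbb-bh1 was at 1330 CPM at E11.5 and 3.90 at E14.5, and the part of free RNA in the germ cell values was not tested.

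Pluripotency genes fell late. Over all genes 2.19% were lower at E13.5 and 7.93% at E14.5. At E13.5, 2 of 22 listed genes were lower, Sox15 (60.4 to 24.9 CPM) and Zfp296 (25.5 to 8.95 CPM), and at E14.5, 13 of 21 were lower and 0 higher. Nanog, at 44.5, 37.0, 27.5 and 7.19 CPM over the 4 stages, was among the 13, as were Utf1 (748 to 203 CPM from E11.5 to E14.5), Zfp42 (132 to 36.7 CPM), Tfap2c (70.4 to 22.2 CPM) and Nanos3 (35.6 to 9.48 CPM). Pou5f1 was at 137, 144, 155 and 173 CPM and did not pass. Dppa3 (836, 748, 603 and 471 CPM) and Sox2 (110, 124, 99.5 and 58.1 CPM) did not pass either. Of genes of Nodal signalling, 4 had levels under 20 CPM at all stages. Lefty2, a Nodal inhibitor and target, was at 14.4, 4.90, 0.742 and 0.0985 CPM, Lefty1 at 10.4, 4.19, 1.73 and 1.30, the ligand Nodal at 3.87, 2.42, 1.83 and 0.394, and the co-receptor Tdgf1 at 5.03, 1.36, 0.594 and 0.

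Meiotic genes rose in the same interval, in which 2.10%, 5.60% and 22.0% of all genes were higher at E12.5, E13.5 and E14.5. Of the meiosis list 1 of 7 genes past the minimums was higher at E12.5, 10 of 12 at E13.5 and 19 of 20 at E14.5, with 0 lower at any stage. Stra8 had 0 UMIs at E11.5 and was at 1.82, 129 and 905 CPM later. Set against 3 counts over the E11.5 germ cells, Stra8 was 333-fold higher at E13.5 and 2339-fold higher at E14.5. These folds are not lower bounds. The counting intervals allow less, with lower limits of the log2 ratio of 8.08 and 10.89. Sycp1 was at 5.03, 17.5, 61.0 and 429 CPM, Rec8 at 4.13, 7.88, 44.0 and 147 and Smc1b at 59.9, 155, 304 and 1190. Meioc, which holds cells in meiotic prophase, had 1 UMI at E11.5 and was at 99.1 CPM at E14.5, a 768-fold ratio with an interval of 138 to 30355. Of the germline RNA list 22 of 32 genes were higher at E14.5 and 1, Gtsf1l, was lower, at 47.3, 28.5, 10.3 and 3.25 CPM. The transcriptional co-regulator Cited1 was at 1.42, 4.04, 20.2 and 127 CPM.

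**Figure D5:**
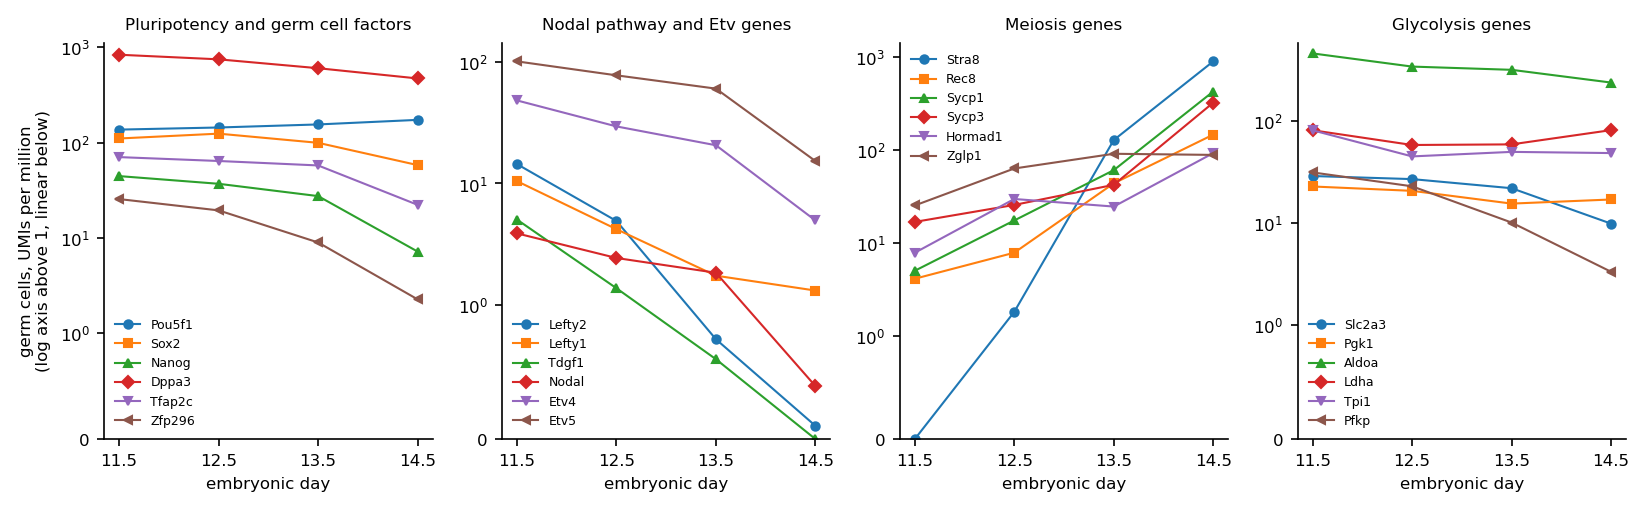
Level in germ cells (CPM, log axis above 1 and linear below) against embryonic day, 1 library per point, for 6 genes in each of 4 panels. Nanog goes from 44.5 to 7.19, Lefty2 from 14.4 to 0.0985, Sycp1 from 5.03 to 429 and Pfkp from 31.3 to 3.35, while Pou5f1 lies between 137 and 173.

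Other genes abundant at E11.5 were lower by E14.5. Over all genes 22.0% were higher at E14.5 and 7.93% lower, which the list counts below should be read against. Hmgn5 was at 400, 325, 109 and 32.4 CPM, Etv4 at 48.5, 29.6, 20.7 and 4.95, and Etv5 at 102, 78.2, 60.7 and 15.3. Of 13 glycolysis genes 7 were lower at E14.5 and 0 higher, and the list summed to 3807, 3028, 2425 and 1815 CPM. In comparison cells that sum was 9722, 5703, 4487 and 4807 CPM. The Rhox list divided: Rhox1 (27.3 to 140 CPM), Rhox7a (12.3 to 49.6 CPM), Rhox7b and Rhox13 (7.10 to 47.1 CPM) were higher at E14.5, Rhox4c was lower, and Rhox9, at 858, 905, 726 and 574 CPM, did not pass. Of 17 imprinted genes 6 were higher at E14.5 and 0 lower, among them Igf2 (10.6 to 40.9 CPM), Dlk1 (9.16 to 28.1 CPM) and Gnas (27.9 to 75.4 CPM). Dlk1 is also an interstitial marker, and the interstitial list summed to 33.9, 34.7, 71.4 and 119 CPM in germ cells from E11.5 on, and to 614, 575, 1104 and 1186 CPM in comparison cells. Its part in the imprinted values was not tested. Xist was in no stage's count, at 94.0, 96.1, 164 and 157 CPM. X-linked genes gave 3.34% of germ cell UMIs at E11.5 and 3.42%, 3.94% and 4.25% later, against 3.44%, 3.56%, 3.72% and 3.54% in comparison cells. From E11.5 to E14.5 the median log2 ratio was 0.76 for 204 X-linked genes and 0.27 for 5366 autosomal genes.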

How the data were processed

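The data were 1 single-cell library per stage. The deposited values are natural log values: each is ln of 1 plus 10000 times a gene's share of its cell's UMIs, as read from the values. Cell Ranger 2.2.0 and mm10 are named per the submitters' processing notes, and cell calling and filters are not given in the sources used here. Whole UMI counts were recovered from the deposited values in all 19387 cells and 19321 genes (69792436 values above 0, 100% whole at a tolerance of 1e-06). The design had assumed deposited counts, and the recovered counts were used instead. Levels are summed UMIs scaled to 1000000 with exact Poisson 95% intervals, ratios have exact binomial intervals, and shares have Clopper-Pearson intervals. UMIs of 1 cell are not independent, so all intervals cover counting error only. Cells were thinned to 5000 UMIs with seed 1 for per-cell values. Doublets were called with Scrublet in scanpy 1.11.5 at an assumed rate of 6%, and kept. The size rule is no test. Python 3.11.15, numpy 2.4.6, scipy 1.17.1, pandas 2.3.3 and matplotlib 3.10.9 were used, with GENCODE M21 for chromosomes and RefSeq (GRCm38.p6) for promoters. Promoters were matched for 194 of the 246 genes higher in germ cells (78.9%), so a motif comparison for that set is void, and for 4942 of all 6095 (81.1%).

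The members and gene lists were chosen with earlier results of these data known. Named genes were those of the lists, the 15 highest and 10 lowest ratios outside them, the 8 highest and lowest per stage, of which a part is printed (some genes are not reported here), and the 10 highest Fano factors. Alternatives were other marker numbers, scalings, minimums, ratios, thinning depths and left-out cells.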

Additional observations from a re-analysis of the deposited data

Results flagged for a closer look

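Y-linked UMIs appeared in a library whose label is XX, outside the genes compared above. In the E14.5 library 534 of the 2390 germ cells (22.3%) and 460 of the 2128 comparison cells (21.6%) had at least 1 UMI of a Y-linked gene, against 0 UMIs in every cell class at E11.5, E12.5 and E13.5. In E14.5 germ cells the UMIs were mostly of Uba1y (534 UMIs), Eif2s3y (493 UMIs) and Ddx3y (194 UMIs). Germ cells with and without a Y-linked UMI had 159 and 156 CPM of Xist, and comparison cells 2503 and 2314 CPM. The E11.5 germ cells are not touched by these UMIs, but each comparison with E14.5 includes such cells. The cause was not tested.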

How the results depend on the processing

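No paired analysis was possible because each stage is 1 library with no replicate. The share of germ cells was 7.36% with at least 2 markers, 3.36% with at least 4 and 1.61% with the rule applied to cells thinned to 5000 UMIs, against 4.92%. Counts of genes higher and lower in germ cells than in comparison cells were 611 and 3314 with no CPM minimum, 713 and 1844 at a ratio of 2, and 143 and 552 at a ratio of 8. With no CPM minimum the stage counts, higher and lower, were 337 and 89 at E12.5, 1386 and 304 at E13.5, and 3603 and 967 at E14.5. At a ratio of 4 they were 1 and 2, 21 and 5, and 357 and 84. Median-of-ratios scaling gave 760 lower genes at E14.5. The count of genes with a Fano factor above 1.5 was 25 at 2000 UMIs and 149 at 8000. No listed or named gene called higher or lower against comparison cells reversed its direction under the alternatives run. Genes without a call, and stage ratios of single genes, were not checked for this. On thinned cells, which hold fewer UMIs, 19 of the listed and named genes lost and 3 gained their call. Stfa1, Lpp, Col12a1 and Tuba3a gave no ratio there, being at 0 UMIs in 1 class. With median-of-ratios scaling Peg3, Plagl1, Id2 and Pfkl lost their call in germ against comparison cells and L3mbtl2, Ung, Atad2, Anln and Crabp1 gained one. With at least 4 markers 4 genes lost theirs, among them Esrrb, Rhox4c and Peg3. Without the 8 germ cells rich in supporting markers (chosen after seeing the data, as was leaving out cells with Y-linked UMIs) 252 genes were higher and 975 lower, sharing 246 and 956 with the counts above. A gene at 0 UMIs in the germ cells has a limit of 0.387 CPM by the count convention and an upper Poisson limit of 0.476 CPM.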
